A study of Homo sapiens with 6 samples.

Results

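The genes described here encode the machinery that takes up, activates and oxidises fatty acids in liver cells, the liver fatty acid binding protein FABP1 and enzymes of ketone bodies. Their probe sets were found by gene symbol in the array annotation. Of 35 listed genes, 33 had a named probe set among 24241 genes tested, and CPT1B and ACSL3 were not analysed here. They were measured on 6 Affymetrix arrays of HepG2, a widely used cell line from a human liver tumour, grown in RPMI medium. In 3 samples the cells received the solvent DMSO and in 3 they received 0.75 µM verteporfin, each for 24 hours. Verteporfin is a porphyrin photosensitiser that is also described as a disruptor of the YAP-TEAD interaction, and light exposure is not stated in the labels. The labels do not tell whether replicates are separate cultures, and p-values then reflect only the spread among these arrays, which could be technical.

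Long-chain fatty acids are bound in the cytosol, activated to acyl-CoA esters and carried as carnitine esters into the mitochondrion, where each turn of beta-oxidation removes an acetyl unit by dehydrogenation, hydration, a second oxidation and thiolysis. Peroxisomes run a parallel cycle with their own enzymes, which shortens very long and branched chains before mitochondria finish them. In the fasting liver much of the acetyl-CoA is turned into ketone bodies, which other tissues burn.

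Most of these transcripts were lower with verteporfin, and the fall was uneven along the pathway. Of the 33 genes, 21 were lower, 4 were higher and 8 did not pass the test (limma, Benjamini-Hochberg adjusted p under 0.05 over all genes). Over all genes tested 14.3% were lower and 14.3% higher. Among the 12257 genes above the median signal of 4.83, where 31 of the 33 genes lay by their mean over the arrays, 25.6% were lower and 26.3% higher. The median difference of the 33 genes was -0.48 on the log2 scale, against 0.00 over all genes. FABP1, the fatty acid transporter SLC27A2, the dehydrogenases ACADSB and HADH and the peroxisomal enzymes ACAA1 and EHHADH fell by the widest margins, each over 3-fold. In all, 8 of the 33 genes fell at least 2-fold, against 3.01% of all genes tested. That share includes genes below the median signal, where differences understate change, and was not computed for genes above it. ACSL5, ACADVL, CRAT and ACSL1 were the 4 that rose. All 3 verteporfin arrays lay below all 3 DMSO arrays for 24 genes and above them for 4. Of all genes, 19.5% and 19.6% were so placed (39.1% in either direction). Among the 12257 genes above the median signal, 3784 were placed below and 3898 above. Precision is limited by having 3 arrays a group. Values are RMA log2 levels with equal distributions on all arrays, so that a common rise or fall of all transcripts could not be seen.

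**Figure D1:**
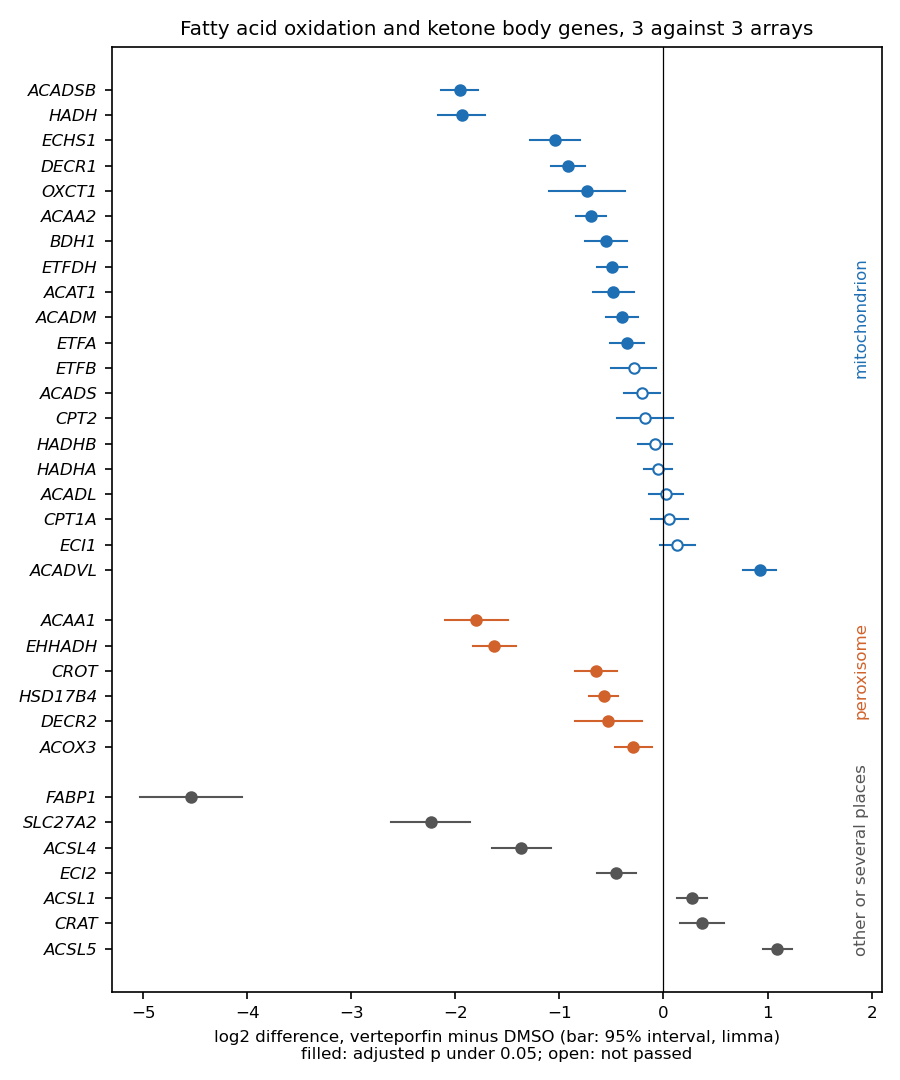
Log2 difference between verteporfin and DMSO (x axis) for each of the 33 genes, with its 95% interval from limma, grouped by where the protein works. Filled points passed an adjusted p of 0.05; the 6 peroxisomal genes all lie below 0, while the 20 mitochondrial genes run from ACADSB at -1.96 to ACADVL at 0.92.

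The label of the cells was checked against markers. All 12 hepatocyte markers were above the median signal in DMSO, as were 3 of 5 cholangiocyte markers (SOX9, EPCAM and KRT19), 2 of 7 stellate cell or fibroblast markers, 1 of 6 leukocyte markers (LYZ) and none of 5 endothelial markers. The cholangiocyte list had a mean log2 level of 8.11 to 8.21 on the DMSO arrays and 7.61 to 7.87 on the verteporfin arrays. The mean log2 level of the hepatocyte markers was 12.27 to 12.29 on the DMSO arrays and 10.87 to 11.03 on the verteporfin arrays. Of the 12, 9 fell, with the smallest adjusted p in TF, FGB, TTR and APOA1. Among all genes above the median signal 25.6% were lower and 26.3% higher. The test was passed by 0 of 7 stellate and 0 of 5 endothelial markers. Markers of other cell types fell too, namely SOX9 (-1.11 ± 0.10), KRT19 (-0.50 ± 0.15), EPCAM (-0.40 ± 0.06), LYZ (-1.33 ± 0.12) and CD14 (-0.34 ± 0.07, below the median signal on every array). The falls described below stood beside falls of other hepatocyte products and of these markers, and their part in the results was not tested. In such bulk RNA, fewer cells with a transcript and less of it per cell cannot be told apart.

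FABP1, the protein that binds long-chain fatty acids in hepatocyte cytosol, changed most. The 250 bases before its start are shown because this gene had the largest fall of the set, SLC27A2 follows as the second largest, and HADHB is shown as a gene that did not pass. Capitals mark matches to 3 short motifs, searched on both strands and not overlapping here. The nuclear receptor half-site is AGGTCA. The half-site of the liver factor HNF1 is written GTTAAT. The common form of the TATA box is TATAAA. Sequences are from RefSeq, build GRCh38.p14, 5′ to 3′ on the gene's own strand. FABP1 lies on the minus strand (chr2:88128063-88128312), SLC27A2 on the plus strand (chr15:50181946-50182195) and HADHB on the plus strand (chr2:26244689-26244938).
FABP1: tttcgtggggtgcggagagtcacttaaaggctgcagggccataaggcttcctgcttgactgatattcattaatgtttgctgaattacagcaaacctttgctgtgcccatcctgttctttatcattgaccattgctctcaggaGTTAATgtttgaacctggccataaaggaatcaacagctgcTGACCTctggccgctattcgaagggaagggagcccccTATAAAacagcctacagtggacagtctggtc
SLC27A2: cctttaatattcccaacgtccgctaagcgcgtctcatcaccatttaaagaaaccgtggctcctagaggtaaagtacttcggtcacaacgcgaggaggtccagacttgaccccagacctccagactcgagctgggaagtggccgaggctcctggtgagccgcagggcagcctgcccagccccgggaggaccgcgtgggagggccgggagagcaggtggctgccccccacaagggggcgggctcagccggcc
HADHB: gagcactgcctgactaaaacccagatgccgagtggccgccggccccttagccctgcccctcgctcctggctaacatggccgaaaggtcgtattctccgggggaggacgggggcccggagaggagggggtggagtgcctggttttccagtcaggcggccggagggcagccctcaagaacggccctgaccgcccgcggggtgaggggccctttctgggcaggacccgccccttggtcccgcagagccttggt

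In FABP1, counting back from the start, the TATAAA match lay at positions -31 to -26, the half-site at -68 to -63, where it reads TGACCT on this strand, and GTTAAT at -108 to -103. The windows of SLC27A2 and HADHB held none of these letters. Of all 35116 promoter windows of this length, 12.1% held AGGTCA, 6.23% GTTAAT and 10.7% TATAAA. The direct repeat of AGGTCA with any 1 base between the copies, the form known to bind PPAR with RXR, was in 0.0171% of them. Among the 41 windows of the 28 listed genes with an entry, 2 held AGGTCA, 3 GTTAAT, 2 TATAAA and 0 the direct repeat, so that FABP1 was the only one with 3 different matches. Only these exact letters were searched, so imperfect copies were not counted, and a count of 0 for so rare a string says little. A match describes the letters and is not a binding site.

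FABP1 (probe set 2168_at) had log2 levels of 10.83, 10.63 and 10.66 with DMSO and 5.62, 6.45 and 6.42 with verteporfin. The groups stood far apart, and verteporfin replicate 1 was the lowest of the 6. The difference was -4.54 ± 0.21 (± SE from limma throughout, with 3 arrays in each group), which is 23.3-fold lower (adjusted p = 5e-06). It was the 5th lowest difference of all 24241 genes, and it ran from -4.27 to -4.68 over 12 alternative settings. The verteporfin mean of 6.17 was still above the median signal, although the distance to background is unknown.

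A fall as large as that of FABP1 could not have been seen in the other FABP genes measured. Their DMSO means ran from 3.40 (FABP12) to 5.33 (FABP6), and the lowest value on any array was 3.17. Of 7 measured, FABP2, the intestinal form, fell (-0.60 ± 0.12) and FABP6, the ileal bile acid binding form, rose (0.34 ± 0.09). FABP7 (0.08 ± 0.09) and FABP3 (-0.08 ± 0.09) did not pass. With 14.3% lower and 14.3% higher, as over all genes tested, the count is not a result about the family. Of these 7 genes FABP6 alone had a DMSO mean above the median signal, and the FABP6 call was lost without each DMSO array (adjusted p up to 0.0652).

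SLC27A2, a fatty acid transport protein that also activates very long chains, had log2 levels of 9.61, 9.63 and 9.68 with DMSO and 7.10, 7.80 and 7.30 with verteporfin. Its DMSO arrays lay within 0.1 of each other while the verteporfin arrays were spread (SD 0.36). It fell by 2.24 ± 0.16 on the log2 scale, 4.72-fold (adjusted p = 3.49e-05).

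The acyl-CoA synthetases, which join fatty acids to coenzyme A, moved in opposite directions. ACSL4, the form that prefers arachidonate, had log2 levels of 11.40, 11.41 and 11.41 with DMSO and 9.74, 10.21 and 10.17 with verteporfin. It was 2.58-fold lower (-1.37 ± 0.12, adjusted p = 0.0001), and verteporfin replicate 1 was again lowest. ACSL5 had log2 levels of 10.16, 10.21 and 10.12 with DMSO and 11.21, 11.29 and 11.27 with verteporfin. It was 2.14-fold higher (1.10 ± 0.06, adjusted p = 1.11e-05), with both groups tight. ACSL1, the main form of liver and fat, rose by a small amount (0.27 ± 0.06, adjusted p = 0.0104). Its log2 levels were 9.24, 9.20 and 9.18 with DMSO and 9.53, 9.49 and 9.43 with verteporfin. All 4 genes of uptake and activation had the groups apart.

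Of 15 further synthetases and transporters, 8 fell (53.3%) and 1 rose (6.67%), with a median of -0.33, and 2 were higher without DMSO replicate 3. For all genes above the median signal the shares were 25.6% lower and 26.3% higher. The mitochondrial synthetases ACSF2 (-1.80 ± 0.11) and ACSM3 (-0.93 ± 0.10) fell, as did ACSS3 (-1.60 ± 0.12), which activates short chains. ACSM2A (-1.16 ± 0.14) fell too, and its value is uncertain because its near-identical neighbour ACSM2B may share the probe signal.

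**Figure D2:**
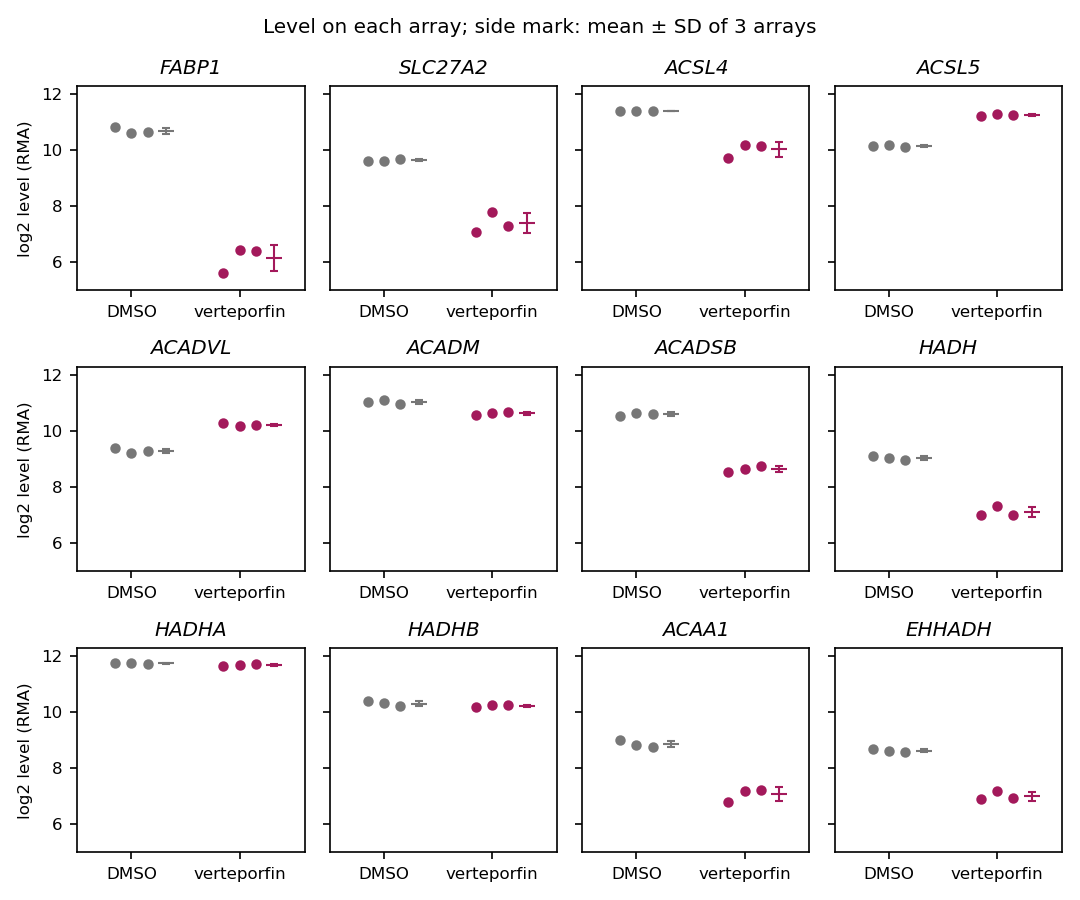
RMA log2 level (y axis) of 12 genes on each of 3 DMSO arrays (grey) and 3 verteporfin arrays (purple), with the mean and SD at the side of each group. FABP1 fell from 10.7 to 6.17, ACSL5 and ACADVL rose, and HADHA and HADHB did not pass.

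The carnitine shuttle showed no common direction. CPT1A, the liver enzyme that commits long chains to mitochondrial oxidation and is blocked by malonyl-CoA, had log2 levels of 7.84, 7.94 and 7.83 with DMSO and 7.80, 8.0 and 7.98 with verteporfin. The groups overlapped, the difference was 0.06 ± 0.08 (adjusted p = 0.688), and its 95% interval was -0.12 to 0.23. CPT2, which rebuilds the acyl-CoA on the inner membrane, was at -0.18 ± 0.12 (interval -0.45 to 0.09, adjusted p = 0.35), with 1 of its verteporfin arrays inside the DMSO range. CRAT, the carnitine acetyltransferase of mitochondria and peroxisomes, had log2 levels of 8.22, 8.0 and 8.32 with DMSO and 8.55, 8.60 and 8.49 with verteporfin. It rose by 0.37 ± 0.09 (adjusted p = 0.018), a call lost without verteporfin replicate 2 (adjusted p = 0.0545). CROT, the peroxisomal octanoyltransferase that exports shortened chains, had log2 levels of 6.40, 6.47 and 6.25 with DMSO and 5.80, 5.60 and 5.78 with verteporfin. The groups were apart for both CRAT and CROT. CROT fell by 0.65 ± 0.09 on the log2 scale (adjusted p = 0.000761).

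The acyl-CoA dehydrogenases, which open each turn of the mitochondrial cycle and are told apart by chain length, did not move together. ACADVL, for very long chains, had log2 levels of 9.39, 9.24 and 9.30 with DMSO and 10.29, 10.20 and 10.22 with verteporfin. It rose 1.9-fold (0.92 ± 0.07, adjusted p = 3.55e-05), and all its verteporfin arrays lay above 10. ACADM, for medium chains, had log2 levels of 11.04, 11.11 and 10.98 with DMSO and 10.58, 10.67 and 10.70 with verteporfin. It fell 1.32-fold (-0.40 ± 0.07, adjusted p = 0.00265). ACADS, for short chains, was at -0.21 ± 0.07 and did not pass (adjusted p = 0.0747), although its groups did not overlap. ACADL stayed at 3.78 ± 0.03 with DMSO and 3.80 ± 0.10 with verteporfin (SD), below the median signal on every array, and its difference of 0.03 ± 0.07 did not pass (adjusted p = 0.862).

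ACADSB, the dehydrogenase of short branched chains, which acts in isoleucine breakdown, fell most in this family. Its log2 levels were 10.56, 10.67 and 10.63 with DMSO and 8.55, 8.67 and 8.78 with verteporfin. It was 3.88-fold lower (-1.96 ± 0.08, adjusted p = 2.72e-06), with a narrow spread in both groups. It was the mitochondrial gene with the lowest difference of the 20 measured.

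Electrons from these dehydrogenases pass to the respiratory chain through the electron transfer flavoprotein and its dehydrogenase. ETFA had log2 levels of 10.89, 10.86 and 10.74 with DMSO and 10.47, 10.54 and 10.42 with verteporfin. ETFDH had log2 levels of 7.80, 7.72 and 7.81 with DMSO and 7.30, 7.24 and 7.30 with verteporfin. Both ETFA (-0.35 ± 0.07, adjusted p = 0.00625) and ETFDH (-0.49 ± 0.06, adjusted p = 0.000532) fell. ETFB was at -0.29 ± 0.09 and stood at the threshold (adjusted p = 0.0511). It passed in 4 of 12 alternatives, among them those without DMSO replicate 3 (adjusted p = 0.026) and without verteporfin replicate 2 (adjusted p = 0.0411). All 3 had the groups apart.

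The later steps of the mitochondrial cycle split between the long-chain complex and the short-chain enzymes. HADHA and HADHB, the subunits of the trifunctional protein that handles long chains, did not pass. HADHA had log2 levels of 11.76, 11.76 and 11.73 with DMSO and 11.66, 11.70 and 11.72 with verteporfin. Its verteporfin arrays lay just below the DMSO arrays, with a difference of -0.05 ± 0.06 (interval -0.19 to 0.08, adjusted p = 0.6). HADHB had log2 levels of 10.41, 10.33 and 10.21 with DMSO and 10.19, 10.25 and 10.25 with verteporfin. Its groups overlapped, and the difference was -0.08 ± 0.07 (interval -0.25 to 0.08, adjusted p = 0.493). In the promoter table the starts of HADHA and HADHB face away from each other with 306 bases between them, and the 250 bases before each start share 194, so that most of the HADHB sequence printed above also lies before HADHA.

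HADH, the short-chain hydroxyacyl-CoA dehydrogenase, had log2 levels of 9.12, 9.06 and 8.99 with DMSO and 7.01, 7.33 and 7.02 with verteporfin. It was 3.83-fold lower (-1.94 ± 0.10, adjusted p = 7.11e-06). ECHS1, the short-chain enoyl-CoA hydratase, had log2 levels of 10.49, 10.32 and 10.22 with DMSO and 9.14, 9.45 and 9.31 with verteporfin. It was 2.06-fold lower (-1.04 ± 0.10, adjusted p = 0.000171). ACAA2, a mitochondrial thiolase of medium and short chains, was 1.62-fold lower (-0.69 ± 0.06, adjusted p = 9.54e-05). Its log2 levels were 10.0, 10.0 and 10.01 with DMSO and 9.39, 9.28 and 9.27 with verteporfin. The groups did not overlap for any of these 3 genes.

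Unsaturated chains need further enzymes to move or reduce their double bonds. DECR1, the mitochondrial dienoyl-CoA reductase, had log2 levels of 9.49, 9.39 and 9.32 with DMSO and 8.41, 8.53 and 8.50 with verteporfin. The groups were far apart, and it fell 1.89-fold (-0.92 ± 0.07, adjusted p = 4.7e-05). ECI2, an isomerase of mitochondria and peroxisomes, had log2 levels of 10.80, 10.82 and 10.66 with DMSO and 10.23, 10.42 and 10.27 with verteporfin. It fell (-0.45 ± 0.08, adjusted p = 0.00338), whereas the mitochondrial isomerase ECI1 was at 0.13 ± 0.07 and did not pass (adjusted p = 0.255). DECR2, the peroxisomal reductase, had log2 levels of 8.33, 8.09 and 8.35 with DMSO and 7.56, 8.03 and 7.58 with verteporfin. It fell by 0.53 ± 0.14 (adjusted p = 0.0225), and verteporfin replicate 2 lay close to the DMSO range. That call was lost in 5 of 12 alternatives, namely without DMSO replicate 1, DMSO replicate 3, verteporfin replicate 1 or verteporfin replicate 3, and with the replicate number as a block (adjusted p 0.0633 to 0.0796).

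**Figure D3:**
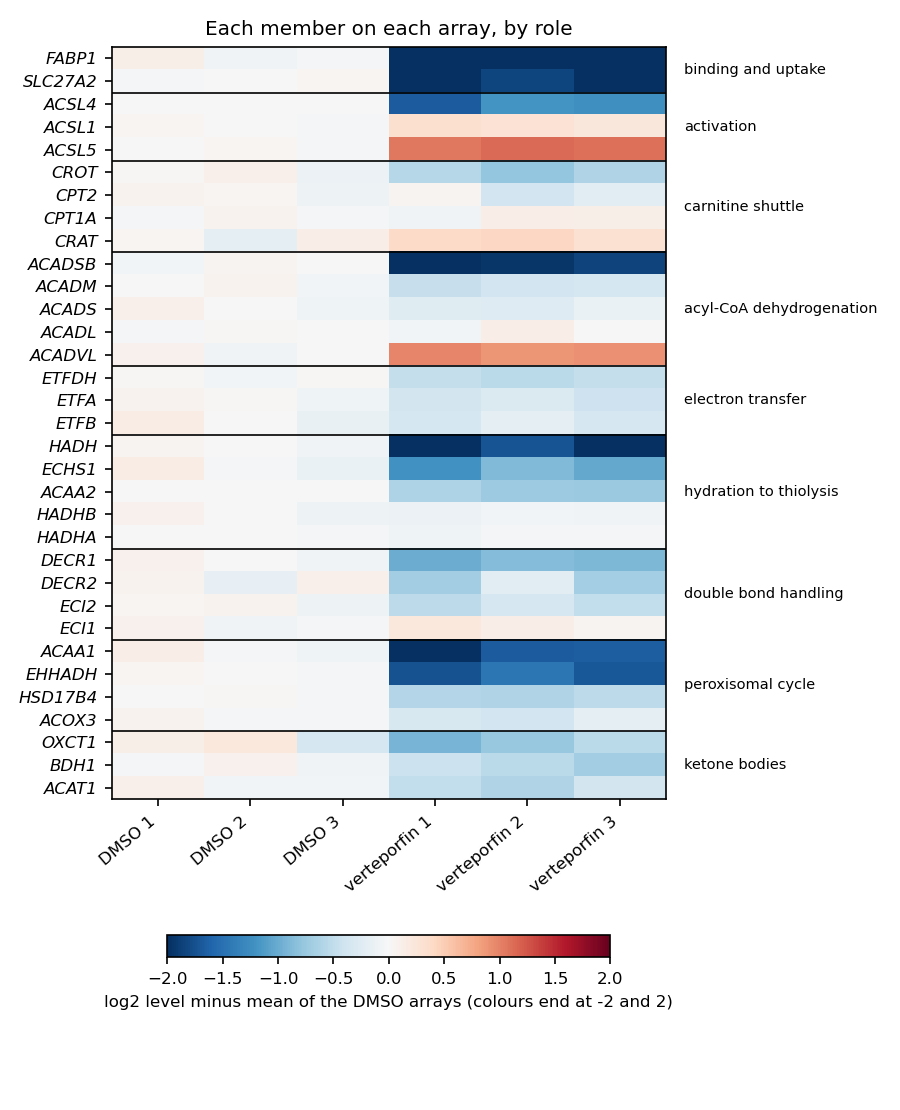
Log2 level of each gene on each array minus its mean over the DMSO arrays (colour, ending at -2 and 2), in the order of the pathway. The 3 verteporfin columns are alike for most genes, and the rises of ACSL5 and ACADVL stand among falls.

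The 4 listed enzymes of the peroxisomal cycle fell. ACAA1, the peroxisomal thiolase, had log2 levels of 9.01, 8.83 and 8.78 with DMSO and 6.79, 7.21 and 7.23 with verteporfin. It was 3.48-fold lower (-1.80 ± 0.13, adjusted p = 3.38e-05). EHHADH, the L-bifunctional enzyme that is a classic PPAR alpha target in rodents, had log2 levels of 8.68, 8.64 and 8.59 with DMSO and 6.89, 7.19 and 6.94 with verteporfin. It was 3.09-fold lower (-1.63 ± 0.09, adjusted p = 1e-05), and for both genes verteporfin replicate 1 was lowest. HSD17B4, the D-bifunctional enzyme of very long and branched chains, fell 1.49-fold (-0.57 ± 0.06, adjusted p = 0.000197). Its log2 levels were 10.59, 10.63 and 10.58 with DMSO and 10.01, 9.99 and 10.08 with verteporfin, with no overlap. ACOX3, an oxidase of branched chains, had log2 levels of 8.0, 7.89 and 7.88 with DMSO and 7.61, 7.55 and 7.75 with verteporfin. It fell least of the 4 (-0.29 ± 0.08, adjusted p = 0.0236). That call was lost without DMSO replicate 1, verteporfin replicate 1 or verteporfin replicate 2, and with the replicate number as a block (adjusted p 0.0518 to 0.0884).

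Set side by side, 6 of 6 peroxisomal genes and 11 of 20 mitochondrial genes were lower, and 0 and 1 were higher. Among all genes above the median signal 25.6% were lower and 26.3% higher. The peroxisomal count rests in part on DECR2 and ACOX3. It was 4 of 6 with the replicate number as a block, without DMSO replicate 1 and without verteporfin replicate 1, and 5 of 6 without DMSO replicate 3, verteporfin replicate 2 or verteporfin replicate 3. The mitochondrial count was 11 or 12 in all 12 alternatives. The median differences were -0.61 and -0.37, and the ranges overlapped, from -1.80 to -0.29 for peroxisomal and from -1.96 to 0.92 for mitochondrial genes. On single arrays the peroxisomal median, relative to the DMSO mean of each gene, was -0.64, -0.69 and -0.63 with verteporfin, and the mitochondrial median was -0.39, -0.38 and -0.35. With CRAT, ECI2 and SLC27A2 counted as peroxisomal the median difference of that group was -0.57. The group then no longer fell throughout, since CRAT rose (0.37) while ECI2 (-0.45) and SLC27A2 (-2.24) fell. Genes are not replicates, and no test was made of the difference between the compartments.

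Enzymes of the same or a related step in the 2 compartments were compared for 5 pairs chosen with the values known. The measure was the log2 ratio of the peroxisomal to the mitochondrial gene within each array. The ratio of ACAA1 to ACAA2 changed by -1.10 with verteporfin (SD 0.12 with DMSO and 0.31 with verteporfin), that of EHHADH to HADHA by -1.57 (SD 0.03 and 0.15), of HSD17B4 to HADHA by -0.52 (SD 0.02 and 0.04) and of CROT to CPT2 by -0.47 (SD 0.06 and 0.14). The reductases went the other way, with the ratio of DECR2 to DECR1 changing by 0.39 (SD 0.16 and 0.23). These values are a description of the chosen pairs, in which HADHA stands for the mitochondrial side of both bifunctional enzymes. CROT and CPT2 are both carnitine acyltransferases, but CROT exports shortened chains and CPT2 rebuilds acyl-CoA, so they are not the same step. Other partners give another order. HADH (-1.94) and ECHS1 (-1.04), which act on the same steps for short chains, had lower differences than HSD17B4 (-0.57), and HADH also lower than EHHADH (-1.63). The oxidase ACOX3 (-0.29) was less far below 0 than the dehydrogenases ACADM (-0.40) and ACADSB (-1.96). The dehydrogenases ACADS (-0.21), ACADL (0.03, below the median signal) and ACADVL (0.92) had higher differences than ACOX3.

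Peroxisomal genes outside the cycle fell in part. Among all genes above the median signal, 25.6% were lower and 26.3% higher. Of 20 peroxins and other peroxisomal genes on a further list, 7 were lower (35%) and 0 higher, with a median of -0.11. Without DMSO replicate 1 there were 4 lower and 1 higher, and 1 was also higher without verteporfin replicate 1 or 2, with the other variance model and among genes above the median signal only. Catalase CAT, which removes the peroxide made by the oxidases, fell (-1.36 ± 0.08), as did the membrane protein PXMP2 (-1.56 ± 0.10) and ABCD3 (-1.24 ± 0.13), which imports long-chain acyl-CoA. The import factor PEX3 fell by a small amount (-0.30 ± 0.07). Of the 20 genes, 13 did not pass. This list does not hold every peroxisomal gene, and the beta-oxidation list below had genes that rose, among them NUDT19 and HACL1.

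The 3 listed ketone body enzymes fell. ACAT1, which condenses acetyl-CoA to acetoacetyl-CoA and also cleaves it, had log2 levels of 8.17, 8.01 and 8.01 with DMSO and 7.58, 7.46 and 7.70 with verteporfin. It fell 1.4-fold (-0.48 ± 0.08, adjusted p = 0.00331). BDH1, which converts acetoacetate to 3-hydroxybutyrate, had log2 levels of 4.93, 5.04 and 4.87 with DMSO and 4.53, 4.41 and 4.26 with verteporfin. It fell by 0.55 ± 0.09 (adjusted p = 0.00192), with all verteporfin arrays below the median signal, so this is a difference of measured signal. OXCT1, which starts the use of ketone bodies and is known to be low in normal hepatocytes, had log2 levels of 7.05, 7.16 and 6.61 with DMSO and 6.01, 6.19 and 6.41 with verteporfin. It fell 1.67-fold (-0.74 ± 0.16, adjusted p = 0.00864), and its DMSO arrays were the most spread of the 33 genes (SD 0.29).

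Of 25 further genes of beta-oxidation and ketone bodies, 10 fell (40%) and 4 rose (16%). All genes above the median signal had shares of 25.6% lower and 26.3% higher. The 4 that rose were NUDT19 (0.60 ± 0.09), ACBD3 (0.54 ± 0.06), SLC22A5 (0.52 ± 0.11) and HACL1 (0.30 ± 0.09). They are named after their values were seen. The 25 genes had a median of -0.17. The 4 with the smallest adjusted p all fell, namely BDH2 (-1.56 ± 0.11), the acyl-CoA binding protein DBI (-1.0 ± 0.07), ACACB (-1.31 ± 0.09), which makes the malonyl-CoA that blocks CPT1 at the mitochondrion, and ACOX2 (-1.39 ± 0.13), the peroxisomal oxidase of branched chains and bile acid precursors. Of 9 acyl-CoA thioesterases, which release free fatty acids, 3 fell and 1 rose (33.3% and 11.1%, against 25.6% lower and 26.3% higher among all genes above the median signal), and 2 were higher without verteporfin replicate 3. ACOT2 (-0.99 ± 0.08), ACOT13 (-0.40 ± 0.06) and ACOT1 (-0.57 ± 0.12) fell and ACOT9 (0.64 ± 0.07) rose, and signal may be shared between the near-identical ACOT1 and ACOT2.

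Of 22 known regulators of fatty acid oxidation, 6 were higher (27.3%) and 7 lower (31.8%), with a median of 0.01. These shares are near those of all genes above the median signal (26.3% and 25.6%), so the count is not a result about the regulators. The coactivator PPARGC1A, known as PGC-1 alpha, had the smallest p and fell (-2.22 ± 0.08). CREB3L3, a liver transcription factor of the fasting response, fell (-1.26 ± 0.11), and CEBPB (1.98 ± 0.09) and PPARG (1.02 ± 0.08) rose. PPARA, the main nuclear receptor for these genes in liver, is named after its value was seen. It was at -0.36 ± 0.12 and did not pass (adjusted p = 0.0604). Of 21 described PPAR alpha targets outside the 33 genes, 6 rose and 6 fell (28.6% each), with a median of 0.07, which is likewise near the shares of all genes above the median signal. TRIB3 (1.93 ± 0.07), the lipid droplet protein PLIN2 (1.46 ± 0.06) and VNN1 (0.84 ± 0.09) rose and CREB3L3, which is in both lists, fell. The lists share some genes and are not independent of each other.

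**Figure D4:**
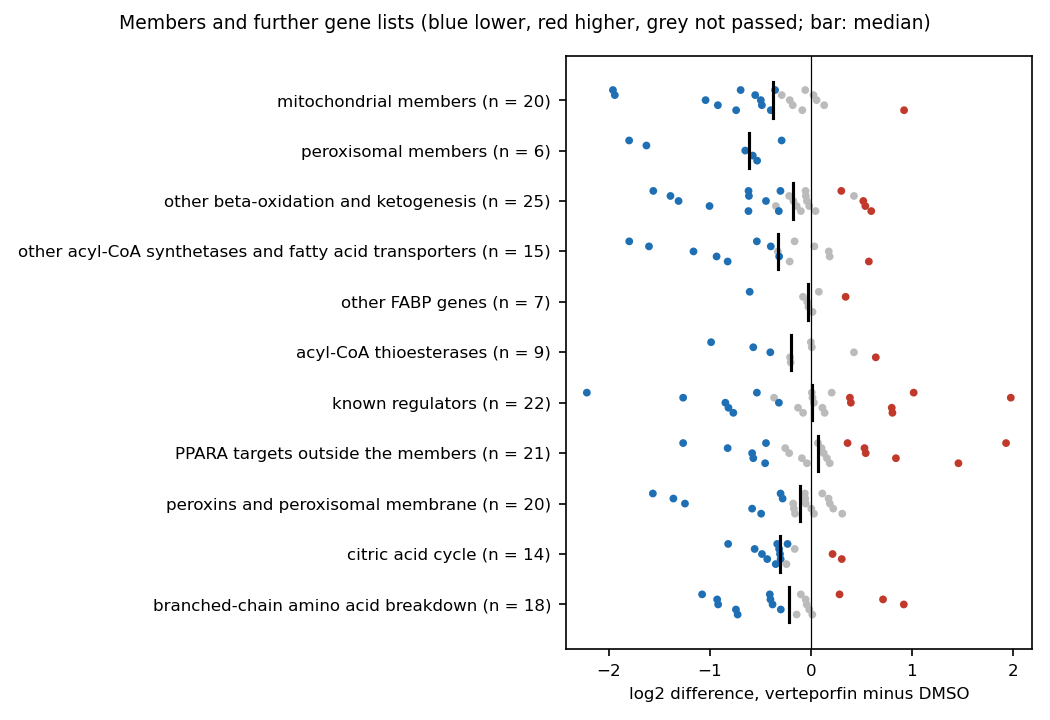
Log2 difference (x axis) of the mitochondrial and peroxisomal genes and of 9 further lists, 1 point per gene, with the median as a bar. The peroxisomal genes have no grey or red point, while regulators and PPAR alpha targets spread on both sides of 0.

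The verteporfin arrays were not equally far from DMSO. Of the 21 genes that fell, verteporfin replicate 1 had the lowest level for 13, replicate 2 for 5 and replicate 3 for 3. Over all genes called lower the shares were 48.8%, 24.9% and 26.3%. Without verteporfin replicate 1, 19 of the 33 genes were lower and 4 higher, and FABP1 was at -4.27.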

How the data were processed

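Total RNA of 6 HepG2 samples was hybridised as biotin-labelled cRNA to Affymetrix arrays. The deposited log2 values were made by the authors with RMA, per the submitters' processing notes, which corrects background, equalises the distributions and summarises each probe set. For the array model, the RMA version and the build, the sources used here give nothing. The log2 scale was read from the values (3.17 to 13.8, with the same sorted values on all 6 arrays). Scanner intensities and detection calls were not used, so background is unknown. Of 25582 probe sets, 24244 had exactly 1 symbol, 0 had several and 1338 had none. The brightest stood for a gene, which left 24241 genes.

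Groups came from the labels. Genes were fitted with limma 3.58.1 in R 4.3.3 (lmFit, eBayes) as verteporfin minus DMSO, without covariates, with two-sided p-values adjusted by Benjamini-Hochberg over all genes. SE is moderated, and intervals are at 95%. Log2 differences of dim probe sets understate change. Lists are described by counts and medians. The members, lists, motifs and pairs were chosen with earlier results of these data known. From each of the 9 further lists up to 4 genes with the smallest adjusted p are named, with exceptions marked. Across genes, Pearson's r was 0.995 to 0.997 between replicates and 0.969 to 0.977 between groups. The fit was tested on simulated data first, with 50 changed genes per size. It recovered 98% of log2 changes of -2 and 94% of changes of -1. For changes of -0.5 and 0.5 it recovered 48% and 54%, so small changes can be missed. The 3 false calls were counted over all sizes together. Only 50 of 24241 genes were changed per size, whereas 6916 genes were called in the arrays. The adjusted p depends on how many genes change, so these percentages hold for the simulation only. Recovery in the arrays was not tested. Alternatives were the replicate number as a block, each array left out, another variance model, only genes above the median signal, another centring, the mean of probe sets, and all probe sets.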

Additional observations from a re-analysis of the deposited data

How the results depend on the processing

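Of 394 recomputed differences of the 33 genes under 12 alternatives, 379 kept their direction and their side of the threshold. Calls were lost for DECR2 (5 alternatives), ACOX3 (4) and CRAT (1), and ETFB passed in 4. ACADL, which never passed, turned from 0.026 to -0.027 without verteporfin replicate 2 (range -0.027 to 0.070 with single arrays left out); the cause was not tested, and its signal is below the median. The count of members called lower was 19 to 21 and of those called higher 3 to 4 with single arrays left out. The other alternatives, among them another variance model, only genes above the median signal, another centring and all probe sets, gave 19 to 22 and 4. The median of the mitochondrial genes was -0.35 to -0.41 and of the peroxisomal genes -0.61 to -0.65 with single arrays left out. Same-numbered samples did not deviate together (correlations of -0.02, -0.11 and -0.01), so no shared shift was seen. These values cannot tell whether such samples were handled as pairs. With the replicate block 19 members were lower and 4 higher, and over all genes 3150 were lower and 3209 higher, against 3456 and 3460. Counts over all genes lay between 2985 and 3220 lower and between 2989 and 3406 higher with single arrays left out. Of 417 recomputed differences of the up to 4 genes with the smallest adjusted p in each further list, 413 kept their call. The other 4 were all FABP6. The remaining genes named outside the 33, among them the markers, PPARA, PCCA and BCKDHA, were not recomputed.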

Other observations

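Other mitochondrial pathways that meet beta-oxidation at acetyl-CoA were also lower in part. Of 14 measured citric acid cycle genes, 10 fell (71.4%) and 2 rose (14.3%), with a median of -0.31. For all genes above the median signal the shares were 25.6% lower and 26.3% higher. Citrate synthase CS (-0.82 ± 0.11), which takes up the acetyl-CoA, isocitrate dehydrogenase IDH2 (-0.56 ± 0.07), the succinate dehydrogenase subunit SDHC (-0.48 ± 0.09) and DLST of the oxoglutarate dehydrogenase complex (-0.31 ± 0.06) fell. In 7 of 12 alternatives only 1 gene of this list was higher.

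The breakdown of branched-chain amino acids shares the electron transfer flavoprotein with beta-oxidation and includes the step of ACADSB. Of its 18 further genes, 9 fell (50%) and 3 rose (16.7%), with a median of -0.22, against the same shares of 25.6% and 26.3%. BCKDHB, a subunit of the complex that commits these amino acids to oxidation (-0.93 ± 0.06), the carboxylase subunit MCCC2 (-0.92 ± 0.07) of leucine breakdown, HIBCH (-1.08 ± 0.09) of valine breakdown and PCCB (-0.72 ± 0.08), which carboxylates propionyl-CoA, fell. The 2 subunits of each enzyme did not always move together. PCCA, the partner of PCCB, rose (0.71 ± 0.09), and BCKDHA, the partner of BCKDHB, rose (0.92 ± 0.18), both named after their values were seen.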
